A study of Mus musculus with 8 samples.

Results

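The loci of 6 mouse genes, Magi1, Clybl, Dars, Spock1, Pknox2 and Slc16a7, were followed for acetylation of histone H3 at lysine 27 (H3K27ac), out of 21883 protein-coding genes with a RefSeq interval. They were chosen by name from earlier results of these data as places where many H3K27ac regions disappeared and few or none appeared after 4-hydroxytamoxifen (4OHT). Each locus was taken as the RefSeq gene interval on mm10 plus 50 kb on each side. The intervals were chr6:93675453-94283929 for Magi1, chr14:122170994-122402234 for Clybl and chr1:128363707-128417416 for Dars. They were chr13:57421195-57908332 for Spock1, chr9:36890979-37147342 for Pknox2 and chr10:125219270-125389586 for Slc16a7. Exons and introns were not told apart, since the annotation used gives gene intervals. A region is the merged stretch of overlapping peaks from the 4 H3K27ac lists. The 6 windows held 169 of 82792 regions. Because the loss itself chose the genes, the differences between 4OHT and untreated cells given here are descriptions. Calls of a fit over all loci are given beside their genome-wide share and support nothing about the 6 loci.

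Chromatin came from E14tg2a mouse embryonic stem cells of the 129SV background that stably carried cRAF-ErT2, a RAF kinase made inducible by fusion to an oestrogen receptor domain. The 4OHT group received 250 nM 4OHT for 2 h and the untreated group received none, with clones a and b in each group (2 libraries per group). All groups were grown with serum, LIF and 2 uM Chir99021, a GSK3 inhibitor. In all of them the medium was replaced 24 h before treatment, the new one holding serum, LIF and 250 nM PD173074, an FGF receptor inhibitor. The untreated cells carry the same cassette, and no vehicle control is named. An effect of 4OHT and an effect of RAF and ERK activity cannot be told apart here.

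H3K27ac is laid down by the acetyltransferases EP300 and CREBBP on nucleosomes at active promoters and enhancers, and deacetylases remove it. Adding 4OHT to cells with this fusion protein switches on RAF, which signals through MEK to the kinase ERK. In mouse embryonic stem cells ERK activity is known to favour exit from the naive state. The 6 genes belong to no common pathway. Magi1 encodes a scaffold of cell junctions, Spock1 a secreted proteoglycan of the SPARC group, Clybl a mitochondrial lyase for citramalyl-CoA, Dars the cytosolic aspartyl-tRNA synthetase, Slc16a7 a plasma membrane carrier of pyruvate and lactate (MCT2), and Pknox2 a homeodomain transcription factor of the TALE class.

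The peak lists held 59170 and 62764 peaks in 4OHT clones a and b, and 61203 and 63276 in untreated clones a and b. They covered 50.4 to 53.1 Mb each. The depth of sequencing is unknown here. A library without a peak is 1 in which none was called. The cells' labelled type was checked against 12 embryonic stem cell markers, and peaks lay within 12 of 12 in every library (summed length 107 and 101 kb in 4OHT clones a and b, 99.7 and 94.7 kb in untreated clones a and b). Of 5 primitive endoderm markers 0 had a peak in every library (0.407 and 0.870 kb with 4OHT, 0 and 0.496 kb untreated), with Foxa2 and Sox7 at 0 throughout. Of 6 fibroblast markers 1, Col1a1, had a peak in every library, and Col1a2, Col3a1, Prrx1 and Thy1 were at 0 (summed length 1.91 and 1.99 kb with 4OHT, 0.657 and 0.711 kb untreated). The fibroblast difference came mostly from Twist1, with 1138 and 1222 bp in the 4OHT libraries and 0 bp in both untreated libraries. Its part in the results below was not tested.

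The first question was how many regions each locus lost. A region was called lost when both untreated libraries and neither 4OHT library had a peak in it, and gained in the opposite case. The 6 windows held 48 lost regions and 1 gained region. Across the genome, 6.26% of regions were lost and 6.2% gained. Magi1 and Clybl held 11 lost regions each, Dars and Pknox2 8 each, Spock1 6 and Slc16a7 4. These counts and their order depend on the untreated libraries. Without untreated clone a Magi1 held 21, Clybl 17, Spock1 15, Pknox2 12, Dars 8 and Slc16a7 6. Without untreated clone b Magi1 and Clybl held 22 each, Dars 14, Pknox2 10, Spock1 9 and Slc16a7 6. Lost regions over the genome then numbered 13149 and 13473, against 5185 with all libraries. The gained region lay in the Clybl window at chr14:122129862-122130346, inside the neighbouring gene Tm9sf2, so the Clybl window did not hold losses alone. Among all 21883 gene windows, 212 (0.969%) held 0 gained and at least 4 lost regions. Magi1, with 11, had the highest count among windows with 0 gained. Dars and Pknox2 stood level with other windows at 8, and 45 windows reached the 6 of Spock1 and 212 the 4 of Slc16a7.

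Only regions called in both untreated libraries could be lost, and the share lost differed between the loci. Over the genome 13.0% of such regions were lost. At Slc16a7 it was 4 of 4. At Dars it was 8 of 12 and at Spock1 6 of 9 (66.7% each). At Pknox2 it was 8 of 15 (53.3%), at Clybl 11 of 24 (45.8%) and at Magi1 11 of 32 (34.4%). In all, 48 of 96 were lost, 38 were called in all 4 libraries and 10 were kept in a single 4OHT library. Since the loss chose the genes, nothing is read from the distance to the genome-wide share.

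**Figure D1:**
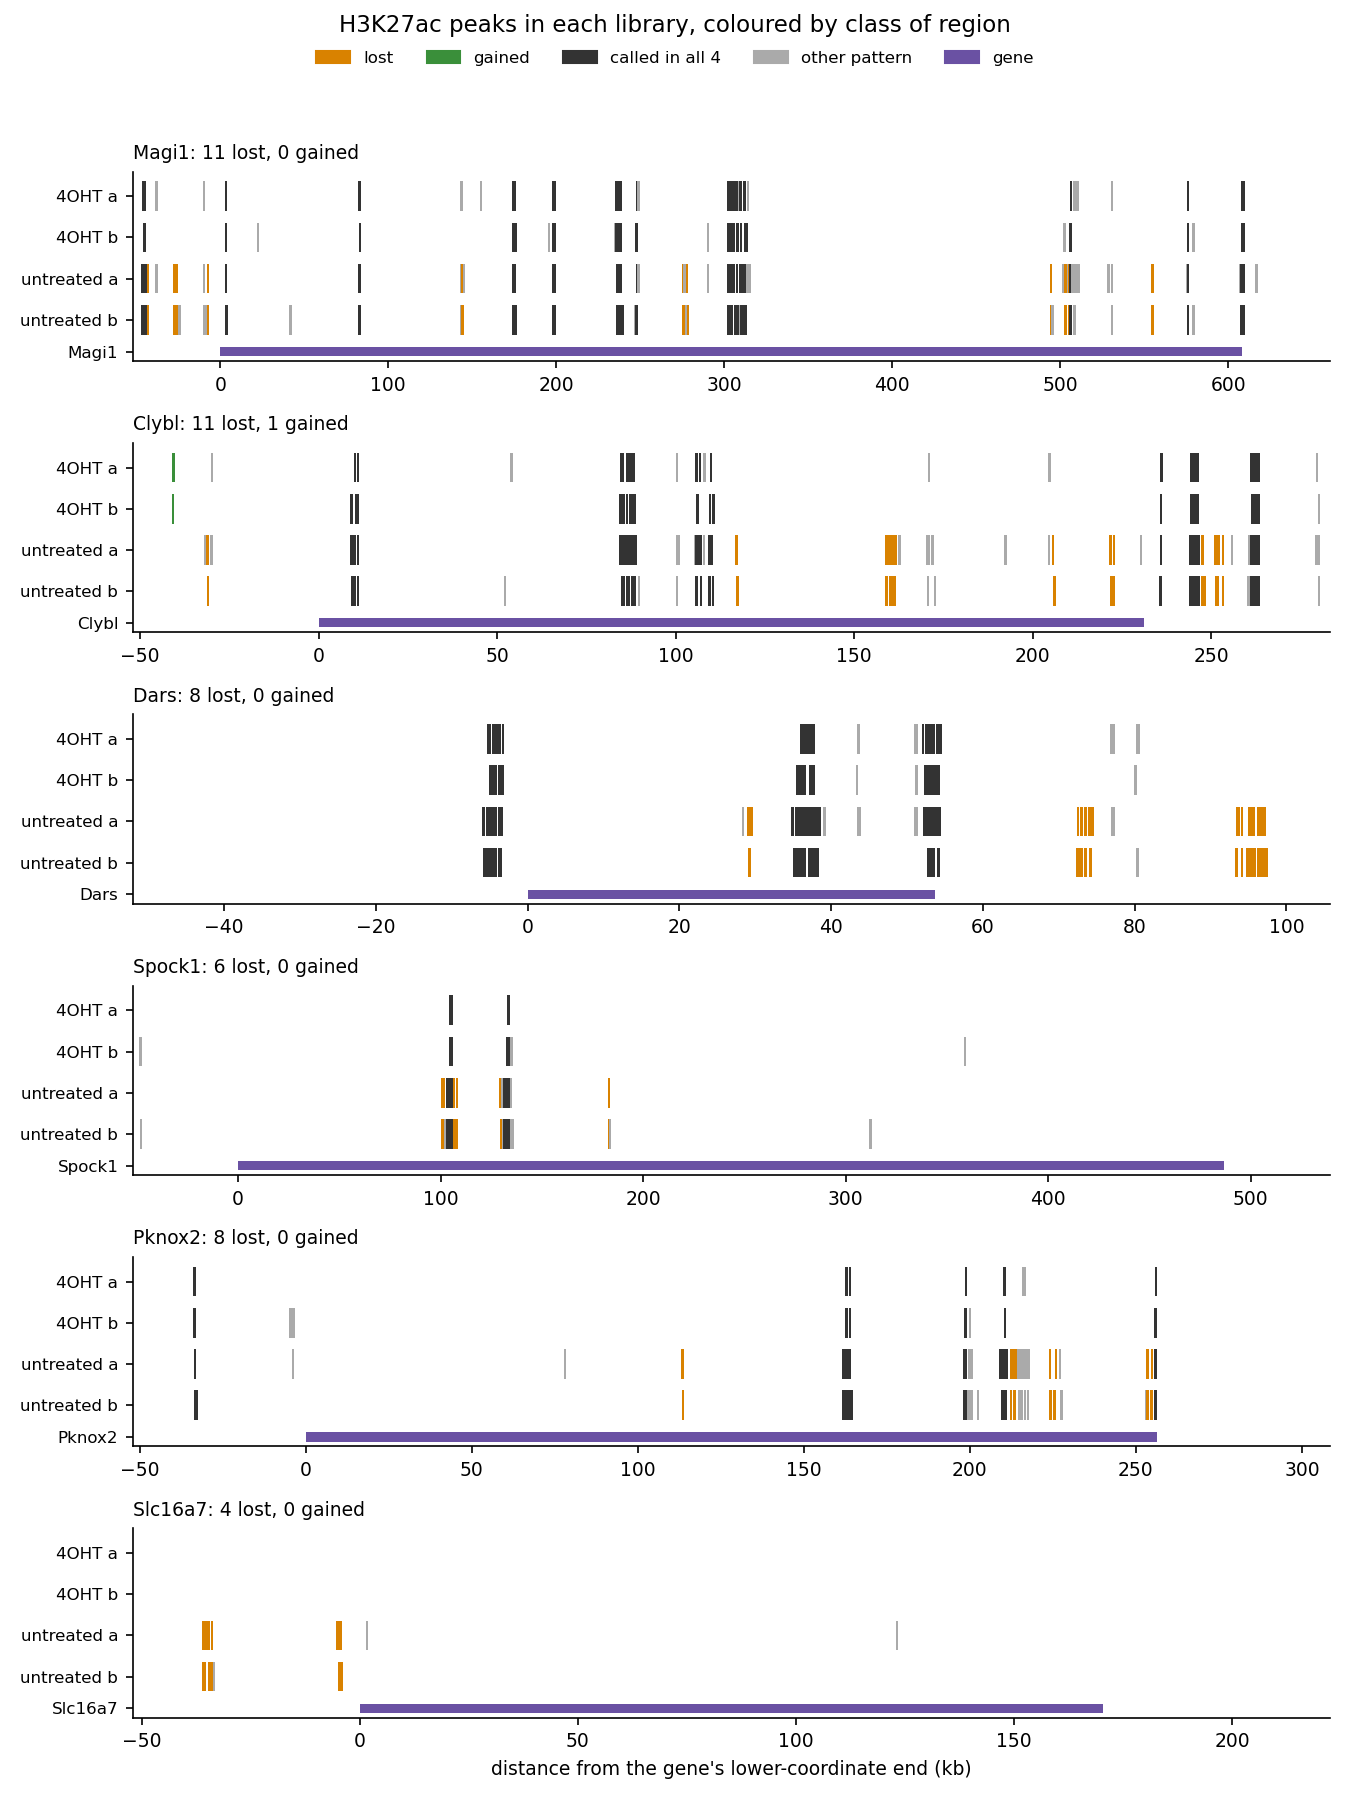
Peaks of each library in the 6 windows, with distance in kb from the gene's lower-coordinate end on the horizontal axis, libraries as rows and the gene as a bar at the bottom; each mark is a deposited peak (narrow ones widened to be visible), coloured by the class of its region. Lost regions sit inside the gene at Spock1 and Pknox2, beside it at Slc16a7 and mostly beside it at Dars, and both 4OHT rows are empty at Slc16a7.

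Both clones showed mostly losses, which choosing the genes by their losses favours. No genome-wide share within a single clone stands beside these counts, so they are descriptions. Counting each clone by itself, with no demand on the other, 80 regions of the 6 windows disappeared and 5 appeared in clone a, and 78 disappeared and 11 appeared in clone b. At Magi1 these were 23 lost and 2 gained in clone a and 24 and 5 in clone b. At Clybl they were 21 and 2 in clone a and 17 and 1 in clone b. At Dars they were 10 and 1 in clone a and 8 and 2 in clone b. Spock1 and Pknox2 had 0 regions gained in clone a, with 8 and 12 lost, whereas in clone b they had 1 and 2 gained and 12 and 12 lost. Slc16a7 lost 6 in clone a and 5 in clone b and gained 0 in either.

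The second question was how much of each locus remained under peaks. Around Magi1 peaks covered 27.3 and 19.0 kb in 4OHT clones a and b, against 42.4 and 29.1 kb in untreated clones a and b. Around Clybl they covered 14.1 and 11.2 kb with 4OHT, against 32.3 and 22.8 kb untreated. In both loci clone a was longer than clone b in either treatment, and the 4OHT value of each clone lay below its own untreated value. Around Dars the lengths were 8.44 and 7.14 kb with 4OHT, against 16.2 and 12.7 kb untreated. Around Spock1 they were 2.45 and 3.08 kb with 4OHT, against 10.2 and 11.6 kb untreated. At Spock1 the order of the clones was the other way round, with clone b longer than clone a. Around Pknox2 the lengths were 4.195 and 3.72 kb with 4OHT, against 16.6 and 16.3 kb untreated, and the untreated clones lay closest to each other of the 6 loci. Around Slc16a7 they were 0 and 0 kb with 4OHT, against 3.71 and 2.96 kb untreated. At the 6 loci both 4OHT libraries lay below both untreated libraries, which held for 21.7% of the 16045 loci with a mean covered length of at least 1000 bp (37.1% went the other way). A smaller share of cells carrying the mark and less of the mark in each cell cannot be told apart in such bulk data.

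**Figure D2:**
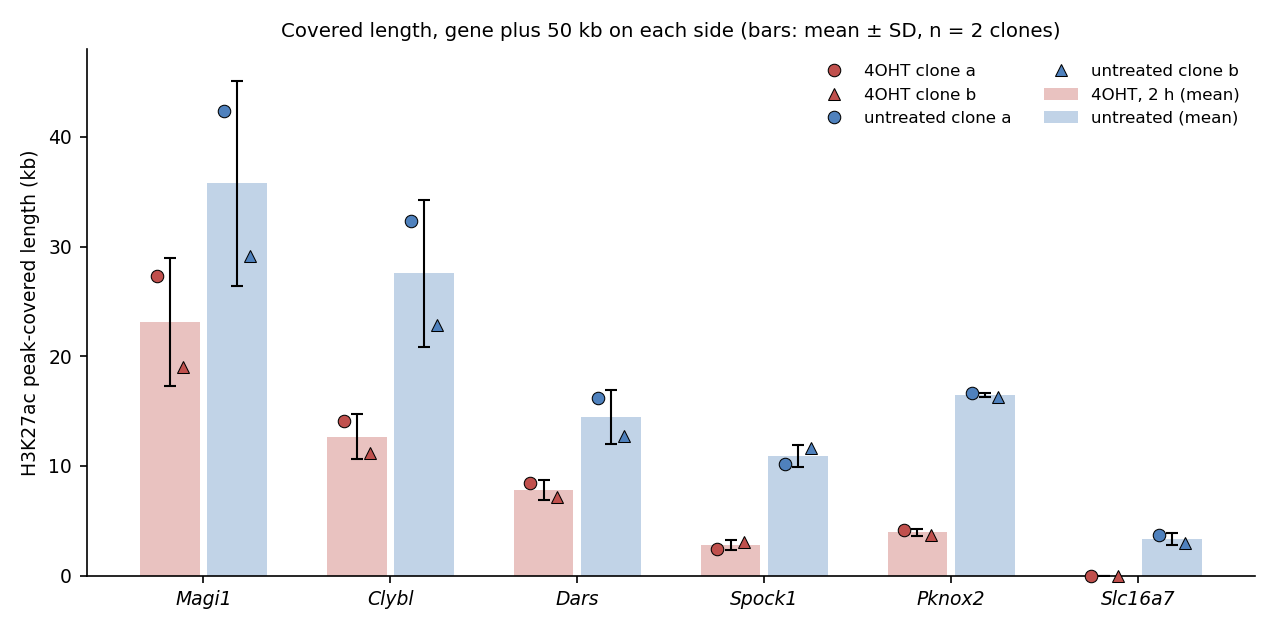
Peak-covered length in kb (vertical axis) of the gene plus 50 kb on each side for the 6 loci, with bars for the mean, error bars for the SD over 2 clones, circles for clone a and triangles for clone b. The 4OHT libraries lie below the untreated libraries at each locus, from 23.2 against 35.8 kb on average at Magi1 to 0 against 3.33 kb at Slc16a7.

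The main limma fit, over 16045 loci on log2(covered bp + 500), had no clone term and so did not pair the libraries. In it the change at Pknox2 was -1.93 ± 0.13 (SE), at Spock1 -1.81 ± 0.16 and at Clybl -1.08 ± 0.21. At Dars it was -0.85 ± 0.17 and at Magi1 -0.61 ± 0.24. The median over all loci was 0.08. Both 4OHT libraries were at 0 around Slc16a7, so no fold is given there. These loci were chosen on this contrast, so limma's calls restate the choice and nothing is read from them. At a Benjamini-Hochberg adjusted p under 0.05 limma called 5 of the 6 lower, all but Magi1, beside 2.87% of all loci. Slc16a7, among the 5, passed the length filter through its untreated libraries alone. With clone as a factor (the replicate block) limma called 6 of 6 lower, beside 15.5% of all loci, and the SE at Magi1 was 0.04. Without 4OHT clone a it called 0 of 16076 loci lower, these 6 included, and without untreated clone a 0 of 16085. At unadjusted p under 0.05 those fits had 1493 and 1194 loci lower, with 6 of 6 and 4 of 5 of the chosen loci among them. Without 4OHT clone b it called 3 of the 6 lower, beside 75 of 15955 loci.

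Whole lost regions made up only part of the shortening, and the part differed by locus. At Slc16a7 they accounted for 88.1% of the difference in clone a and 89.3% in clone b. At Dars they accounted for 70.2% in clone a and 94.7% in clone b. At Magi1 and Clybl their share was 47.3% and 49.2% in clone a and 57.6% and 50.6% in clone b. At Spock1 it was 43.6% in clone a and 31.2% in clone b, and at Pknox2 29.0% and 31.3%. Regions called in all 4 libraries made up 43.1% and 41.1% of the difference at Spock1 in clones a and b, and 32.7% and 33.3% at Pknox2. Regions that were neither lost, gained nor called in all 4 made up 13.3% and 27.7% at Spock1. At Pknox2 these mixed regions were the largest part in both clones, with 38.3% and 35.4%.

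**Figure D3:**
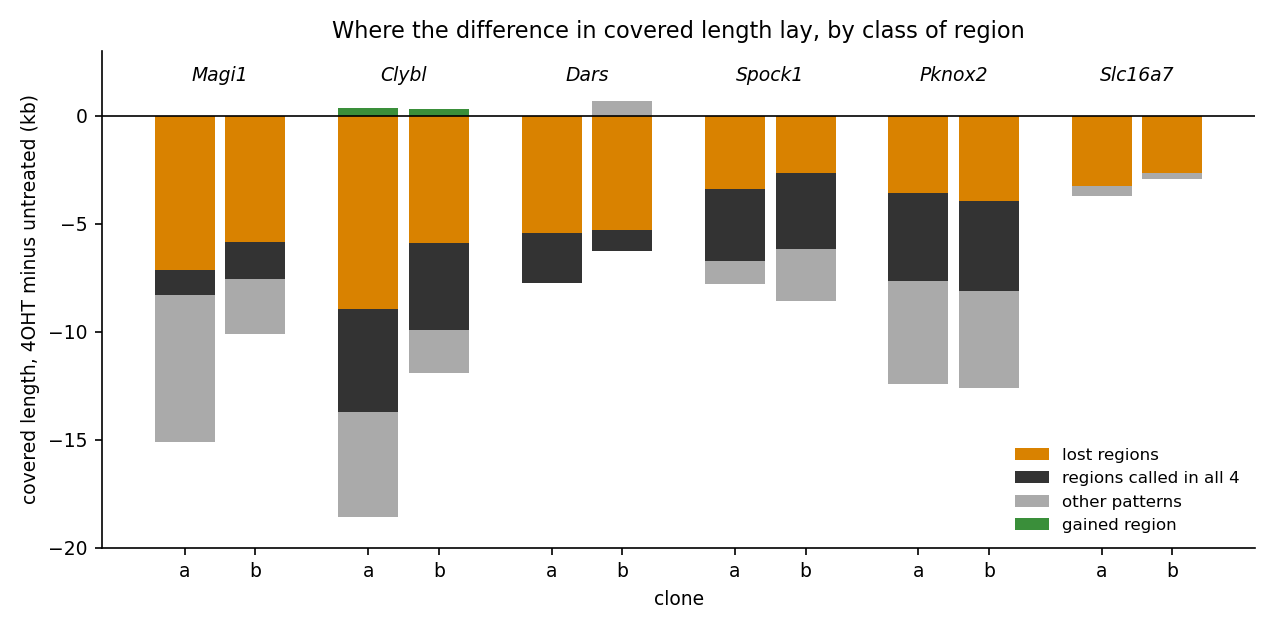
Difference in peak-covered length, 4OHT minus untreated, in kb (vertical axis) for each clone at the 6 loci, stacked by class of region. Lost regions make up most of the bar at Slc16a7 and Dars and under 44% of it at Spock1 and Pknox2, where regions called in all 4 libraries add 3.35 to 4.19 kb of shortening.

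Regions called in all 4 libraries behaved differently between the loci. Over the genome 32.1% of them were shorter after 4OHT in both clones and 39.5% longer. At Clybl 8 of 10 were shorter in both clones and 0 longer, at Pknox2 4 of 5 and 1, and at Spock1 2 of 2 and 0. At Dars 2 of 4 were shorter and 1 longer, and at Magi1 5 of 17 and 3. Slc16a7 had none. Their length is a measure from the same contrast, so these counts describe the loci and are not a separate test.

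Magi1 is a gene of 608 kb on the minus strand of chromosome 6. Inside it lay lost regions and an internal promoter region that widened in both clones. Genome-wide, 39.5% of regions called in all 4 libraries did so. The table of RefSeq promoters places 2 start sites of Magi1 about 370 kb inside the 5′ end of the interval. The region over them, chr6:93910453-93914904, had 4360 and 3548 bp under peaks in 4OHT clones a and b, against 3265 and 1810 bp untreated. Its score percentile, the rank of its best peak within its own list, was 98.5 and 98.6 with 4OHT, against 89.9 and 82.1 untreated. Regions at the 5′ end of the interval did not widen in both clones. At chr6:94282599-94283909 there were 1070 and 623 bp with 4OHT and 975 and 1243 bp untreated. At chr6:94284017-94284910 there were 809 and 853 bp with 4OHT and 894 and 826 bp untreated. A pair of lost regions lay near the middle of the gene at chr6:93950219-93953834. There 4OHT libraries had 0 and 0 kb, against 2.05 and 0.941 kb in untreated libraries. A further 3 lay at chr6:94169264-94180616, with 0 and 0.213 kb with 4OHT and 3.01 and 1.27 kb untreated. These 3, and a single lost region nearer the 5′ end, overlapped 4930511A08Rik, a long non-coding RNA gene in the RefSeq table.

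Beyond the 3′ end of Magi1, 4 lost regions lay within the window, among them that with the highest score percentiles of the 48. The region chr6:93648080-93650194 was 2115 bp wide, the widest of the 48, and stood at the score percentiles 86.6 and 74.0 in untreated clones a and b. The nearest 4OHT peak was 10913 bp away. It overlaps Gm7812, a pseudogene. A further lost region of this cluster began at chr6:93621063, outside the window. Regions called in all 4 libraries lay among them, so this flank did not empty: at chr6:93630123-93631234 there were 1051 and 1083 bp with 4OHT and 1036 and 1089 bp untreated.

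At Clybl, on the plus strand of chromosome 14, the losses ran through the 3′ part of the gene and past its end. Of 11 lost regions 7 lay in the gene, at 50.7% to 96.3% of its length from the 5′ end. The region chr14:122329699-122333072 held 3 of them, with 0 and 0 kb in 4OHT clones a and b, against 2.94 and 1.71 kb in untreated clones a and b. At chr14:122376409-122393974 another 3 gave 0 and 0 kb with 4OHT, against 1.64 and 0.938 kb untreated. Past the end of the gene 3 more, at chr14:122418109-122424284, gave 0 and 0 kb with 4OHT, against 2.85 and 2.35 kb untreated. These last 2 groups overlap Gm5089, a long non-coding RNA gene. The outer group began 79 bp from chr14:122414724-122418029, which was called in all 4 libraries with 2519 and 2251 bp with 4OHT and 3306 and 3153 bp untreated. Zic5, a zinc finger factor gene whose interval starts 56.9 kb past Clybl, had 2.23 and 2.63 kb under peaks with 4OHT and 2.40 and 2.31 kb untreated, and held 0 lost regions. It lies outside the window and was looked up after the losses were seen.

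Around Dars, on the minus strand of chromosome 1, 7 of 8 lost regions lay upstream of the gene in a single cluster of 25.3 kb, chr1:128435944-128461231. It held 1.24 and 0.334 kb under peaks in 4OHT clones a and b, against 5.29 and 5.28 kb in untreated clones a and b. The untreated clones were nearly equal there, and the 4OHT peaks in it belonged to other regions. At chr1:128440480-128441159 there were 680 and 0 bp with 4OHT and 555 and 0 bp untreated. At chr1:128443636-128444412 there were 564 and 334 bp with 4OHT and 0 and 316 bp untreated, so that region did not go with the losses. The cluster began 18.5 kb upstream of the gene, and its strongest regions, chr1:128458405-128459660 and chr1:128459891-128461231, stood at percentiles of 65.2 and 70.4 in untreated clone a and 67.0 and 66.7 in clone b. Cxcr4, a chemokine receptor gene, is the next gene on that side, 171 kb from Dars. Its interval alone, without flanks, had 0.242 and 0.721 kb under peaks with 4OHT and 0.611 and 0.750 kb untreated, with 0 lost regions. Cxcr4 was also looked up after the losses were seen. Within the gene body alone Dars kept 4.57 and 4.30 kb with 4OHT, against 7.63 and 4.52 kb untreated. Its 5′ region chr1:128415640-128418313 had 2392 and 2175 bp with 4OHT and 2359 and 1531 bp untreated, at percentiles of 98.9 and 99.3 with 4OHT and 98.6 and 98.4 untreated.

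The RefSeq promoter windows (250 bases before to 50 after the start site, GRCm38.p6) show what these starts look like. They are printed for Magi1, Clybl and Dars, whose promoters carried peaks, and for Spock1, whose promoter carried none; capitals mark GC boxes (GGGCGG, searched on both strands). Pknox2 and Slc16a7 were not matched in the promoter table, so 4 of the 6 genes were.
Magi1, second internal start, chr6:93913641-93913940, minus strand: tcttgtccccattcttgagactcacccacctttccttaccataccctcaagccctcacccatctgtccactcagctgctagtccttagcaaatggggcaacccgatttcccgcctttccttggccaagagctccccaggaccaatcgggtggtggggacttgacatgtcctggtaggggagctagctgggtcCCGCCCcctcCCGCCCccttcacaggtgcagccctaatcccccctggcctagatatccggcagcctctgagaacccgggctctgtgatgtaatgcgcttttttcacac
Clybl, chr14:122181444-122181743, plus strand: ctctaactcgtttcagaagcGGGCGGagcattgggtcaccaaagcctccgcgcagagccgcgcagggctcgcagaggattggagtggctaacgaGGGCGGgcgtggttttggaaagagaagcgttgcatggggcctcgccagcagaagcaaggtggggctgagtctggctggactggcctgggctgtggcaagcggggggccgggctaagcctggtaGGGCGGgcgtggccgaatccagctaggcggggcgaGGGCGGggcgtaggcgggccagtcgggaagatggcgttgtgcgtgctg
Dars, chr1:128417367-128417666, minus strand: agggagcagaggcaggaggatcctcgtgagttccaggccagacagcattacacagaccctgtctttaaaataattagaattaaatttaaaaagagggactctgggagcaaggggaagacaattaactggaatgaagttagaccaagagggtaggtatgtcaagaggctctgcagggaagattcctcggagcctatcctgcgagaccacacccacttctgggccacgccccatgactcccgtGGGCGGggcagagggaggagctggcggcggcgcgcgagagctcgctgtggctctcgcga
Spock1, chr13:57908283-57908582, minus strand: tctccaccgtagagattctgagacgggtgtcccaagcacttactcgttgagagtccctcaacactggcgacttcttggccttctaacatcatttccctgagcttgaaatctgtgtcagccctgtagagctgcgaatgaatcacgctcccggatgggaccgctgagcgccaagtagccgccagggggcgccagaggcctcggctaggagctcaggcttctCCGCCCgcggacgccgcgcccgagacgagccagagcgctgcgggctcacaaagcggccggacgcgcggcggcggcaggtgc
They hold 8, 26, 14 and 29 CpG dinucleotides in the order printed, against a median of 7 over 32851 promoters, and 2, 4, 1 and 1 GC boxes, which 35.7% of promoters hold at least once. Further motifs were searched on both strands and have no match in these windows or in that of the first Magi1 start. They were the AP-1 motif TGACTCA, which 1709 of 32851 promoters hold, the ETS motif CCGGAAG (8.86%), the octamer ATGCAAAT (1.74%) and the ESRRB motif TCAAGGTCA (0.423%). The others were the TCF motif CTTTGAA (5.14%), the TATA box as TATAAA (13.6%) and the E-box as CACGTG (7.15%). A match or its absence describes these letters only.

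Coverage of these promoter windows differed between clones. The Magi1 window printed above was covered for 300 and 300 of its bases in 4OHT clones a and b, against 300 and 30 in untreated clones a and b. That of the first Magi1 start, not printed, was covered for 300 and 271 bases with 4OHT, against 300 and 199 untreated. It holds 7 CpG dinucleotides and 0 GC boxes. The Dars window was covered for 178 and 300 bases with 4OHT, against 300 and 117 untreated, and the Clybl window for 44 and 79 with 4OHT, against 70 and 83 untreated. The Spock1 window had 0 bases in each library. Of the 48 lost regions 0 came within 1 kb of the ends of protein-coding genes, against 6.50% of all lost regions. The windows of Magi1, Spock1 and Slc16a7 hold no other protein-coding gene and so few gene ends. The count describes a chosen set, with no test.

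At Spock1, on the minus strand of chromosome 13, the 6 lost regions lay in the 3′ part of a gene of 487 kb, at 62.5% to 79.4% of its length. All but 1 of them lay beside a pair of broad regions that were called in all 4 libraries and were shorter after 4OHT. The first, chr13:57523710-57527303, had 1461 and 1199 bp in 4OHT clones a and b, against 2924 and 3138 bp untreated, and 4 lost regions lay on its sides in a cluster of 8.14 kb. The second, chr13:57552135-57555275, had 986 and 1183 bp with 4OHT, against 2874 and 2763 bp untreated. Its score percentile was 24.5 and 34.8 with 4OHT, against 69.7 and 77.6 untreated. The 2 regions held the whole 4OHT length of clone a at this locus. Of the 4OHT length at the locus 100% in clone a and 91.4% in clone b was also under peaks of the same untreated clone.

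At Pknox2, as at Spock1, the lost regions lay inside the gene, 8 of 8 here. A cluster of 5 covered chr9:37103042-37117283, which held 1.10 and 0 kb in 4OHT clones a and b, against 5.92 and 5.08 kb in untreated clones a and b. Within it the broad region chr9:37105251-37109052 was kept only in 4OHT clone a, with 1098 and 0 bp with 4OHT and 3802 and 2857 bp untreated, and so does not count as lost. A pair of lost regions, chr9:37144073-37146221, gave 0 and 0 kb with 4OHT, against 0.998 and 1.33 kb untreated. This pair lay near the higher-coordinate end of the gene, whose strand the tables used here do not give. Elsewhere in the gene the region chr9:37052440-37055717 shortened to 556 and 598 bp with 4OHT, against 2763 and 3278 bp untreated. The interval of the neighbour Fez1, a gene of neuronal transport, had 0.752 and 0.652 kb with 4OHT and 0.753 and 0.481 kb untreated.

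At Slc16a7 no 4OHT peak remained in the window. Its 4 lost regions lay below the gene in 2 pairs, chr10:125183057-125185481 with 2.08 and 1.87 kb in untreated clones a and b, and chr10:125213790-125215146 with 1.19 and 0.769 kb. The widest, chr10:125183057-125185106, spanned 2050 bp and stood at percentiles of 59.0 and 72.6 in untreated clones a and b. The 4 lay 510322 to 540362 bp from the nearest 4OHT peak. The stretch free of 4OHT peaks, chr10:124249387-125725468, spans 1476 kb and holds Slc16a7 as its 1 protein-coding gene. Untreated clones had 6 peaks each in it, covering 3.71 and 2.96 kb, and all of them lay in the Slc16a7 window. With the gene interval alone Slc16a7 had 0 lost regions, so its place among these loci rests on the flank.

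The 48 lost regions were next set beside all 5185 lost regions of the genome, which include them. Their median width was 618 bp, against 541 bp over all of them. Their median score percentile was 41.4 in untreated clone a and 31.9 in untreated clone b, against 34.0 and 31.5. In both untreated lists 6 of 48 (12.5%) stood in the upper 50% by score, against 12.1% of all lost regions. Another lost region lay within 20 kb of 40 of 48 (83.3%), against 46.4%, a measure that choosing genes with many losses favours. Of the 48, 9 (18.8%) lay within 1 kb of a 4OHT peak, against 35.8% of all lost regions, and 18 (37.5%) lay over 10 kb from any, against 35.3%. These are descriptions of a chosen set, with no test.

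**Figure D4:**
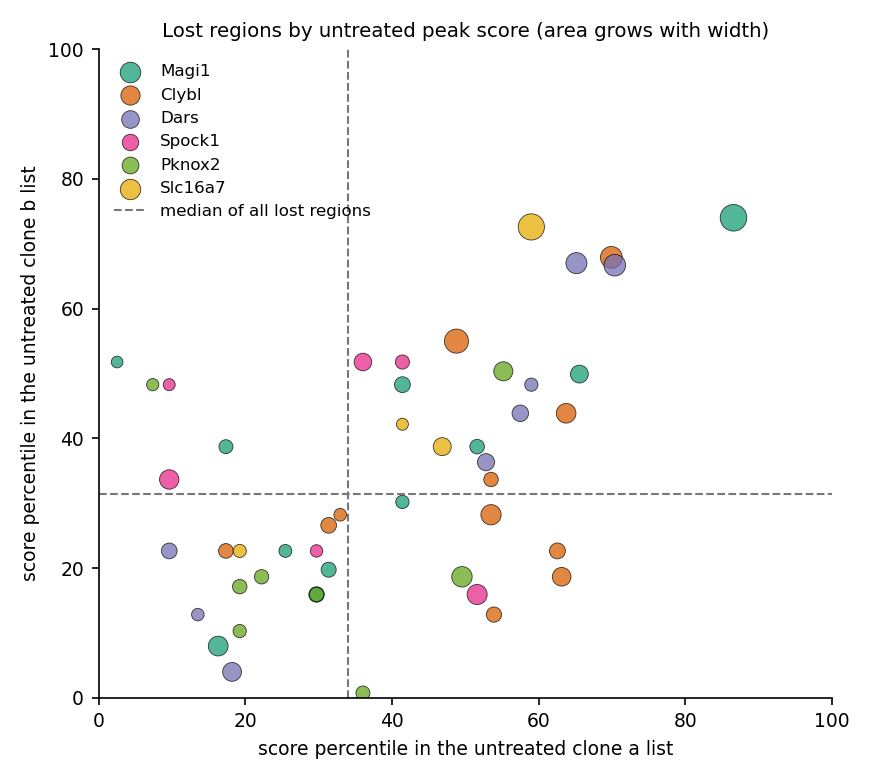
Score percentile of the 48 lost regions in the untreated clone a list (horizontal axis) and the untreated clone b list (vertical axis), with point area growing with width and dashed lines at the medians of all lost regions, 34.0 and 31.5. The widest regions of Magi1, Slc16a7 and Dars lie towards the upper right, that of Clybl lies near the middle, and most points lie below 60 on both axes.

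Within a clone, what stayed after 4OHT mostly lay where peaks had been before. Of the length under peaks in untreated cells, 57.3% and 49.2% was also under peaks of the same 4OHT clone at Magi1 in clones a and b. This share was 40.7% and 43.9% at Clybl, 45.2% and 41.5% at Dars, 23.9% and 24.2% at Spock1, 23.4% and 16.9% at Pknox2 and 0% at Slc16a7. Over the genome it was 73.7% and 73.3%. Conversely, of the 4OHT length, 89.1% and 75.4% at Magi1, 93.2% and 89.3% at Clybl and 92.6% and 74.2% at Pknox2 had been under untreated peaks, against 75.9% and 72.8% over the genome.

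The genes that share a window with a member were looked at by their own intervals. Mcm6, a subunit of the replicative helicase next to Dars, had 1.22 and 1.08 kb in 4OHT clones a and b, against 1.78 and 1.89 kb in untreated clones a and b, with 0 lost regions. Lct, the lactase gene beside it, had no peak in any library. Tm9sf2, a membrane protein gene next to Clybl, had 1.61 and 1.34 kb with 4OHT and 3.14 and 1.69 kb untreated, with 1 lost and 1 gained region. Fez1 reaches into the Pknox2 window, and no other protein-coding gene reaches into the windows of Magi1, Spock1 or Slc16a7.

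The 5 other loci most like these 6 were taken by the number of lost regions with 0 gained in the same window. Only 1 gene was kept where windows overlapped, ties going to the greater lost length. They were Lefty2 with 10, Vps13d with 9 and Hhla1, Golga7b and Mrps6 with 8 each. Around Lefty2, which encodes an inhibitor of NODAL signalling, peaks covered 15.0 and 18.4 kb in 4OHT clones a and b, against 39.1 and 33.1 kb in untreated clones a and b. Around Golga7b they covered 1.79 and 1.10 kb with 4OHT, against 8.28 and 9.44 kb untreated. Likeness here is a count over 4 libraries, made on the same contrast, and says nothing of shared control.

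Genes related to the 6 by family or, for Clybl, by metabolism held both losses and gains. They were 49 genes in 6 groups, called families here. Their windows held 27 lost and 34 gained regions in all. The 10 aminoacyl-tRNA synthetases other than Dars held 7 lost and 3 gained, and the 9 TALE factors other than Pknox2, which include Meis and Pbx genes, 6 and 10. The 10 genes of monocarboxylate transport held 6 and 6, of which Slc16a9 had 4 lost and 1 gained. The 8 junction scaffolds related to Magi1 held 3 and 10. The 6 SPARC-related genes held 4 and 3, with 3 lost at Sparcl1, and the 6 mitochondrial acyl-CoA genes 1 and 2. This last group was taken by metabolism, and the window of Pcca in it overlaps that of Clybl. In limma 0 of 46 family loci that could be fitted passed an adjusted p of 0.05 in either direction, against 2.87% lower and 4.0% higher over all loci. At unadjusted p under 0.05, 4 were lower and 8 higher, beside 10.8% lower and 17.0% higher of all loci. With clone as a factor 5 were lower and 12 higher at the adjusted threshold, beside 15.5% lower and 22.7% higher of all loci. Their median log2 change was 0.04, against 0.08 over all loci.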

How the data were processed

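H3K27ac chromatin immunoprecipitation and sequencing was analysed in 4 libraries. Bowtie2, bedtools, MACS2 and the mm10 build are named in the submitters' processing notes. Their versions, their thresholds and any use of input are not given in those sources. The 4 input libraries were left out. A deposited list holds the peaks called in 1 library, each with the authors' score, whose scale is not stated. Scores served for ranks inside a list and for no other purpose. No counts were used, so depth is unknown and no interval is given.

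Peaks overlapping by 1 bp or more were merged into regions. Lost regions within 20 kb of each other formed a cluster. Genes, promoters and strands came from RefSeq tables of GRCm38.p6, the assembly that mm10 also represents, without exons or introns. Covered length was fitted with limma 3.58.1 in R 4.3.3 on log2(bp + 500), with a mean-dependent prior variance, over loci with a mean of at least 1000 bp. The fit was tested on simulated data. Noise there was drawn independently for each library, so that test cannot judge leaving the clone out. Neighbouring windows share peaks, so loci are not independent.

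The members, families, alternatives and the rule for named genes (the 6 members, genes in their windows, the 5 most similar loci and 6 families) were chosen with earlier results of these data known. The labels use the same clone letters in both treatments, so differences within a clone were taken between libraries of the same letter. The main limma fit left clone out, and the fit with clone as a factor was an alternative. Over 16045 loci, the deviation of 4OHT clone a from the 4OHT mean had a correlation of 0.611 with that of untreated clone a from the untreated mean. Zic5 and Cxcr4 lie outside the rule. With 2 clones per group, the main fit's p-values rest on the spread between these clones within a treatment and the variance of other loci. With clone as a factor they rest on how far the changes of these clones differ, again with the variance of other loci.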

Additional observations from a re-analysis of the deposited data

Results flagged for a closer look

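At Fez1, the neighbour of Pknox2, the length under peaks within the gene moved in opposite directions in the 2 clones. It changed by -0.001 kb in clone a and by 0.171 kb in clone b, 4OHT minus untreated, a gap of 0.172 kb between clones. The change in clone a is the smallest step such lengths allow, and the difference between the clones was not tested.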

How the results depend on the processing

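The 48 lost regions became 14 in the upper 50% of each list by score, 10 in the top 20000 peaks, 18 with peaks within 1000 bp merged and 29 in the gene interval alone. The median per gene of 8 became 2, 1 and 3 in the first 3 of these. Genome-wide, 5185 lost regions became 2517, 1641 and 2508 in the same 3. The share lost of 50% became 40.0% in the upper 50%, 62.3% where 50% of a region had to be covered and 32.7% with merging. In these settings the genome-wide share of 13.0% became 11.4%, 21.1% and 9.04%. With a library left out, lost regions in the 6 windows numbered 51 to 83 and their median per gene 8.5 to 13.5. The count was over 1.5 times higher without untreated clone a (79) and without untreated clone b (83), since fewer libraries then have to hold a peak. The single gained region became 0 in the upper 50%, the top 20000, the window of 10 kb and the gene interval alone, 2 in the window of 100 kb, and 2 to 7 with a library left out. In the top 20000 peaks Dars and Slc16a7 held 0 lost regions, and Pknox2 held 5.

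The 5 loci that limma called lower became 1 in the upper 50% by score, 0 in the top 20000, 2 in the window of 10 kb, 3 in that of 100 kb, 3 with a pseudocount of 100 bp and 2 with no filter, and 0 to 4 with a library left out. The calls over all loci moved too: 461 loci called lower became 139 in the upper 50%, 0 in the top 20000, 277 in the window of 10 kb, 427 in that of 100 kb, 386 with the smaller pseudocount, 53 with no filter, and 0 to 162 with a library left out. In the upper 50%, the top 20000, the window of 10 kb and without untreated clone a, 5 of the 6 loci were fitted. Slc16a7 fell below the length filter there, so part of the drop in calls is a locus that was not tested. With clone as a replicate block limma called 6 of the 6 loci lower and 2485 of all loci. The median log2 change of the 5 loci with 4OHT peaks, -1.08, became -0.77 in the top 20000 and -0.75 in the window of 100 kb, and -1.33 to -0.83 with a library left out. At Pknox2 and Spock1 the log2 change of -1.93 and -1.81 became -4.47 and -3.46 in the top 20000. No setting reversed a locus. The cause of these moves was not tested. With unknown depth, peaks near the calling threshold limit each count.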
